A study of Homo sapiens with 22 samples.

Results

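Tubastatin A, described as a selective inhibitor of the lysine deacetylase KDAC6 (gene HDAC6), was compared directly with PCI-34051, described as a selective inhibitor of KDAC8 (gene HDAC8), in HT1080 cells, a human fibrosarcoma line. The comparison used 6 of the 22 RNA-seq libraries of the series, the 3 from wild-type (WT) cells given 1 µM Tubastatin A and the 3 from WT cells given 5 µM PCI-34051, both harvested after 2 days, and no untreated library entered the fit. The other libraries comprised 4 of untreated WT cells, used here mainly as a background level, and those of the mutant lines. These lines carried the mutation H216A or H611A in KDAC6 or H143A in KDAC8, and their libraries entered a single alternative fit, that of all 22 libraries. All treated libraries share the WT genotype and differ from each other in the compound and in its dose at once, so that compound and dose cannot be told apart. The study's methods call the replicates biological, but no source used here gives separate cultures or days for them, so the p-values measure the spread between these libraries, which may be technical.

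Lysine deacetylases remove acetyl groups from lysine side chains of histones and of many other proteins. KDAC6 is largely cytoplasmic and is best known for deacetylating alpha-tubulin, the subunit that pairs with beta-tubulin to build microtubules, whereas KDAC8 is best known for deacetylating the cohesin subunit SMC3, which lets cohesin be reused after chromosome separation. An inhibitor of either enzyme acts on protein acetylation, and what was measured here is RNA.

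Libraries held 28394248 to 29862658 counts with Tubastatin A and 24315844 to 28676574 with PCI-34051. Libraries of 1 treatment differed from each other by more than counting noise, with a chi-square per degree of freedom of 5.21 to 7.37 between Tubastatin A libraries and 14.6 to 21.1 between PCI-34051 libraries, so that none was a duplicate and the PCI-34051 libraries varied more. Mitochondrial rRNA made up 20.8 to 23.9% of the counts in the untreated libraries but at most 0.00541% in any treated library, and the untreated totals were 5248960 to 8998521, so that levels in untreated cells are given as background without a test. The share of mitochondrial rRNA was 0.000564 to 0.00287% with Tubastatin A and 0.000722 to 0.00541% with PCI-34051 (exact two-sided permutation test, p = 0.8, n = 3 and 3, smallest possible p = 0.1). Of the 9 mesenchymal markers, VIM was at 3038 CPM (counts scaled to library size) or more and FN1 at 2185 CPM or more in every treated library, whereas S100A4 and THY1 were below 1 CPM. The 10 markers of epithelial, blood, endothelial, liver and glial cells summed to 0.691 to 1.06 CPM with Tubastatin A and 1.06 to 1.34 CPM with PCI-34051, with ALB at 0 in all 6 treated libraries, and none passed the test (1 of the 10, GFAP, was abundant enough to be tested). In bulk RNA, fewer cells of 1 kind and less RNA per cell cannot be told apart.

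A small share of genes passed the threshold for a difference between the compounds, though 5165 had an unadjusted p below 0.05 in edgeR. Genes that did not pass may therefore still differ. Of 18409 genes tested, 1041 (5.65%) differed at an adjusted p below 0.01, 636 of them (3.45%) higher with Tubastatin A and 405 (2.20%) higher with PCI-34051. The differences were small, with a median fold of 1.26 among the genes called and 34 genes at a log2 fold change (Tubastatin A minus PCI-34051) of at least 1 in size, 25 higher with Tubastatin A and 9 higher with PCI-34051. Of the 1041 genes called, 947 were protein-coding, and in 1040 (all but RPS26) the 3 libraries of 1 treatment did not overlap the 3 of the other, as was so for 31.9% of all genes tested. The number of calls fell to 414, 508 and 407 without Tubastatin A replicate 1, 2 or 3 and to 613 without PCI-34051 replicate 1. With all 22 libraries in one fit only 7 genes remained past the threshold (FGF1, KIF5C, RGS4, FRAS1, CD274, MPP4 and LINC00707, all higher with Tubastatin A), whereas a fit of the 10 libraries of WT cells gave 984. When only library totals were used for scaling, 431 genes were higher with Tubastatin A and 602 higher with PCI-34051, so the balance between the directions depends on the scaling.

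**Figure D1:**
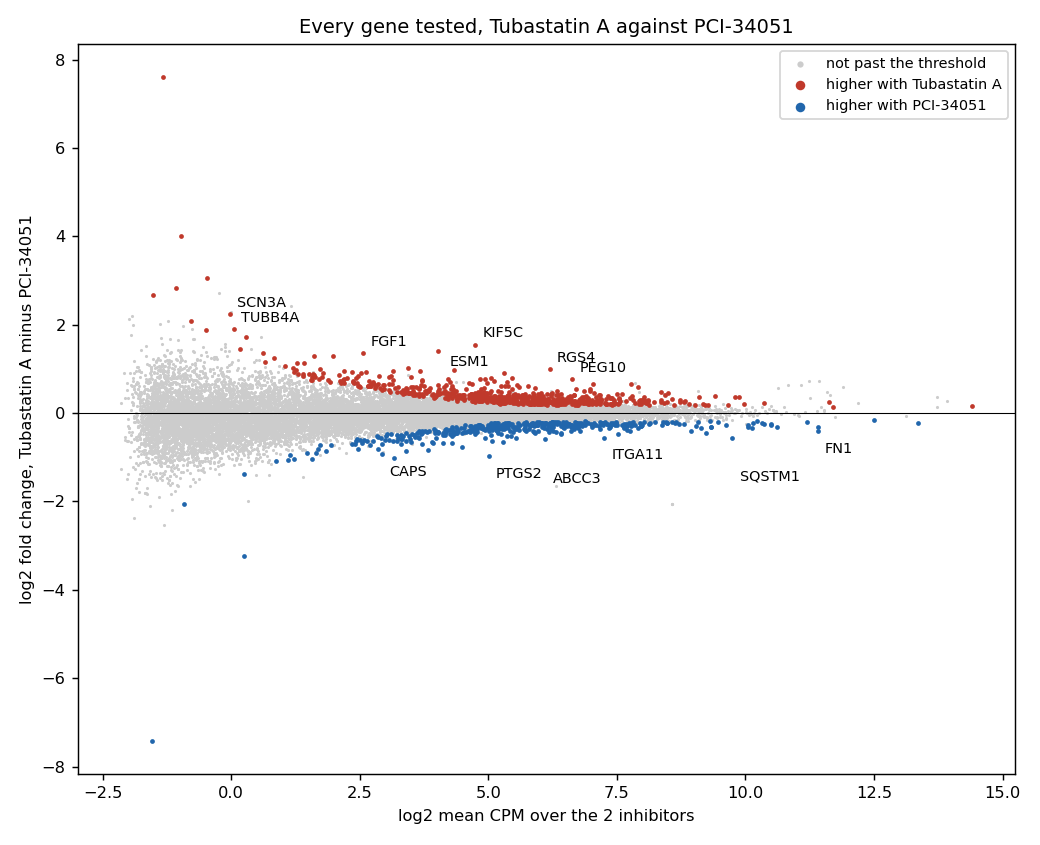
Log2 fold change (Tubastatin A minus PCI-34051) of each of the 18409 genes tested against the log2 of its mean CPM over both treatments, 1 point per gene. The 636 red points are higher with Tubastatin A and the 405 blue points higher with PCI-34051 at an adjusted p below 0.01, and most lie within 1 log2 unit of 0.

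Among protein-coding genes at 1 CPM or more, SCN3A, TUBB4A and PPFIA2 had the largest log2 fold changes on the Tubastatin A side and KIF5C the lowest adjusted p of the 10 largest. KIF5C, a heavy chain of the kinesin-1 motor that carries cargo along microtubules, was at 37.5, 41.3 and 41.1 CPM with Tubastatin A and 14.4, 13.2 and 13.3 CPM with PCI-34051, a 2.93-fold difference (log2 fold change 1.55 ± 0.065 SE, adjusted p = 1.51e-09). The PCI-34051 libraries lay near the untreated cells (12.04 CPM ± 1.65, SD, n = 4) and the Tubastatin A libraries well above both. SCN3A, a sodium channel subunit, was at 1.48, 1.62 and 1.79 CPM with Tubastatin A and 0.443, 0.373 and 0.212 CPM with PCI-34051 (log2 fold change 2.23 ± 0.35 SE, adjusted p = 0.000651). TUBB4A, a neuronal beta-tubulin, was at 1.51, 1.45 and 1.95 CPM against 0.591, 0.373 and 0.353 CPM (log2 fold change 1.90 ± 0.34 SE, adjusted p = 0.00159). For both genes every library with Tubastatin A was above every library with PCI-34051, and the untreated means were 0.156 and 0.142 CPM. FGF1, a secreted growth factor, was at 9.05, 7.85 and 8.77 CPM and 2.84, 3.70 and 3.45 CPM in the same order (log2 fold change 1.35 ± 0.14 SE, adjusted p = 1.45e-05), and the untreated mean of 5.97 CPM lay between. The other genes in the 10 with the largest log2 fold change were PPFIA2 (1.87), GPM6A (1.71), LUZP2 (1.46), TSPAN7 (1.37), KRTAP2-3 (1.29) and NDNF (1.29). With each library left out in turn, KIF5C, SCN3A, FGF1, KRTAP2-3 and NDNF kept their calls in all 6 fits. GPM6A and TUBB4A lost theirs without Tubastatin A replicate 3 (adjusted p = 0.0117 and 0.0172), and TSPAN7, LUZP2 and PPFIA2 lost theirs in 4, 5 and 5 of the 6 fits.

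Upstream of the start of KIF5C, the 250 bases on chr2:148874977-148875226 (plus strand, GRCh38.p14, RefSeq) are shown because KIF5C had the lowest adjusted p of the 10. Capitals mark TGACGTCA, the sequence known to be bound by CREB and ATF proteins.
KIF5C: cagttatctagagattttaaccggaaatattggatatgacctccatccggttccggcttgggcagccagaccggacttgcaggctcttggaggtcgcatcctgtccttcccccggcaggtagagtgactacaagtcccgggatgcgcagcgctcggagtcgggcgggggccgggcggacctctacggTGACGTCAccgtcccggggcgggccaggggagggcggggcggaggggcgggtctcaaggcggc
That sequence, searched on both strands, was present in 2.8% of 12045 such windows of genes tested, 3.64% of 495 windows of genes called higher with Tubastatin A and 2.83% of 283 windows of genes called higher with PCI-34051. The motif was chosen after the data were seen, and a match describes only the letters.

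Among protein-coding genes at 50 CPM or more, RGS4, ESM1, LYPD1, PEG10 and CCBE1 had the largest differences on the Tubastatin A side. RGS4, which shortens G-protein signals, was at 96.2, 92.8 and 104 CPM with Tubastatin A and 51.4, 50.2 and 44.5 CPM with PCI-34051 (log2 fold change 1.00 ± 0.058 SE, adjusted p = 1.07e-07), on either side of the untreated mean of 65.99 CPM. ESM1, a secreted proteoglycan, was at 47.9, 54.5 and 51.96 CPM and 26.03, 29.2 and 26.7 CPM in the same order (log2 fold change 0.91 ± 0.059 SE, adjusted p = 3.07e-07), and both treatments lay far below the untreated 154 CPM. PEG10, an imprinted gene derived from a retrotransposon, was at 123, 119.98 and 134 CPM against 79.5, 70.4 and 70.2 CPM (log2 fold change 0.77 ± 0.057 SE, adjusted p = 7.74e-07), with the untreated mean at 118 CPM. LYPD1 and CCBE1 differed by 0.79 and 0.71 on the log2 scale. All 5 genes kept their calls with each library left out. Outside the protein-coding genes, the long noncoding RNA LINC00707 was at 23.7, 24.7 and 21.9 CPM with Tubastatin A and 10.4, 8.30 and 7.79 CPM with PCI-34051 (log2 fold change 1.41 ± 0.10 SE, adjusted p = 5.45e-07). LINC00702 (0.92) and the pseudogene PVRIG2P (3.05) were also higher with Tubastatin A, and each lost its call in 4 of the 6 fits that left out a library. PVRIG2P was at 1.07, 1.71 and 1.06 CPM with Tubastatin A and 0.41, 0 and 0.07 CPM with PCI-34051. Its fold therefore rests on very few counts with PCI-34051, and its untreated mean of 3.26 CPM was above both treatments.

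On the PCI-34051 side, the largest difference among protein-coding genes at 1 CPM or more was in PTGS2, which encodes the inducible cyclooxygenase that makes the precursor of prostaglandins. It was at 20.5, 21.01 and 23.6 CPM with Tubastatin A and 46.3, 40.4 and 41.5 CPM with PCI-34051, 1.97-fold higher with PCI-34051 (log2 fold change -0.98 ± 0.067 SE, adjusted p = 3.71e-07). The groups did not overlap, and every treated library was above the untreated mean of 2.16 CPM.

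Further down the 10 largest were CAPS, a calcium-binding protein, at 4.87, 5.98 and 4.87 CPM with Tubastatin A and 10.7, 9.26 and 9.84 CPM with PCI-34051 (log2 fold change -0.93 ± 0.12 SE, adjusted p = 0.00015), and EID3 at 9.40, 10.4 and 10.8 CPM and 20.1, 14.95 and 19.99 CPM (log2 fold change -0.85 ± 0.11 SE, adjusted p = 0.00015). For CAPS and EID3 the untreated means of 5.0003 and 9.48 CPM were close to the Tubastatin A level. VASN, which binds TGF-beta, was at 18.2, 15.1 and 16.97 CPM and 27.98, 26.95 and 30.1 CPM in the same order (log2 fold change -0.76 ± 0.076 SE, adjusted p = 1.38e-05). Also among the 10 were ADPRHL1 (-0.95), the receptor gene GRPR (-0.89), the amino acid transporter gene SLC43A2 (-0.81), SERPINB2 (-0.81), GTF2IRD2B (-0.81) and ST6GALNAC2 (-0.72). GTF2IRD2B has a near-identical copy, so its reads may be divided between them. EID3 lies within the more abundant gene TXNRD1 on the same strand, and TXNRD1 was also higher with PCI-34051. Whether reads of TXNRD1 added to the counts of EID3 was not tested. PTGS2, CAPS, EID3 and VASN kept their calls in all 6 fits that left out a library, SERPINB2 lost its call without Tubastatin A replicate 1 and GTF2IRD2B without Tubastatin A replicate 1 or 2, GRPR lost its call without any single Tubastatin A library, and ADPRHL1, SLC43A2 and ST6GALNAC2 lost theirs in 5 of the 6 fits.

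At 50 CPM or more, SQSTM1, the autophagy receptor p62, was at 701, 683 and 709.6 CPM with Tubastatin A and 1027, 1065 and 973 CPM with PCI-34051 (log2 fold change -0.55 ± 0.041 SE, adjusted p = 6.96e-07), both above the untreated 474 CPM. ABCC3, an efflux pump for organic anions, was at 54.9, 57.1 and 52.99 CPM and 78.9, 81.1 and 88.6 CPM (log2 fold change -0.60 ± 0.051 SE, adjusted p = 2.99e-06), against 10.5 CPM in untreated cells. ABCA1, which exports cholesterol, was at 39.4, 37.04 and 36.6 CPM and 56.5, 52.7 and 57.5 CPM (log2 fold change -0.56 ± 0.051 SE, adjusted p = 5.22e-06), both below the untreated 79.4 CPM. These 3 genes, ITGA11 and MMP1 kept their calls with each library left out. Among other gene types, RP11-70C1.3 (-3.24), LLNLF-176F2.1 (-1.39) and RP11-454K7.1 (-1.08) were higher with PCI-34051, at no more than 3.38 CPM in any treated library, and lost their calls in 4, 5 and 5 of the 6 fits.

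**Figure D2:**
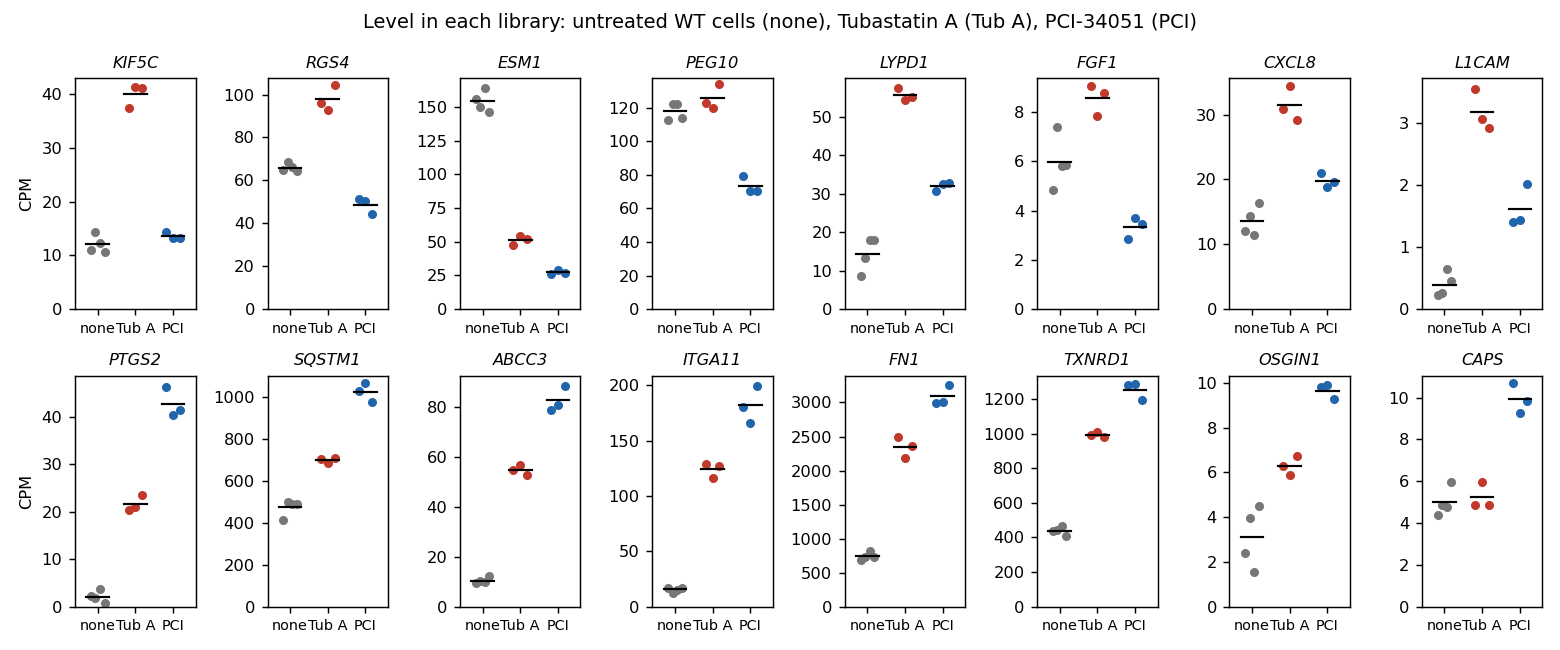
CPM of 16 genes in each library, with 1 point per library and a bar at the mean, for untreated WT cells (grey, n = 4), Tubastatin A (red, n = 3) and PCI-34051 (blue, n = 3), each panel on its own linear axis from 0. In every panel the red and blue points do not overlap, and the untreated level lies near 1 treatment (KIF5C, CAPS), between them (RGS4, FGF1) or outside both (ESM1, PTGS2).

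Many tubulin genes were higher with Tubastatin A. Of the 16 genes of tubulins and microtubule acetylation, all tested, 9 (56.2%) were higher with Tubastatin A and 0 with PCI-34051. Over all genes tested these shares were 3.45% and 2.20%, which are the background for the share of every list below. The median log2 fold change was 0.26 against -0.008 over all genes tested. TUBA1B, the most abundant alpha-tubulin here, was at 1047, 1047 and 1066 CPM with Tubastatin A and 843, 808 and 788 CPM with PCI-34051 (log2 fold change 0.37 ± 0.037 SE, adjusted p = 1.39e-05). TUBB, a beta-tubulin named for its abundance after the values were seen, was at 1442, 1391 and 1435 CPM and 1224, 1227 and 1203 CPM in the same order (log2 fold change 0.22 ± 0.032 SE, adjusted p = 0.000377). STMN1, which binds free tubulin, was at 158, 163 and 168 CPM and 128, 125 and 115 CPM (log2 fold change 0.41 ± 0.05 SE, adjusted p = 9.38e-05). For these 3 genes no PCI-34051 library reached a Tubastatin A library, and the untreated means of 1134, 1328 and 192 CPM were closer to the Tubastatin A level. TUBA1A was higher with Tubastatin A by 0.34, TUBB6 by 0.30, TUBA1C by 0.29, TUBB3 by 0.27 and TUBB4B by 0.24 on the log2 scale. Tubulin genes are close copies of each other, so counts of single members are uncertain, and the summed level of the whole list, STMN1 included, was 4179 to 4275 CPM with Tubastatin A and 3468 to 3571 CPM with PCI-34051. The count of members higher with Tubastatin A was 5 without Tubastatin A replicate 3 and 7 to 9 without any other single library, and 0 with all 22 libraries in one fit.

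Genes of mitosis also stood higher with Tubastatin A. All 34 listed genes were tested, and 16 (47.1%, against 3.45% of all genes tested) were higher with Tubastatin A and 0 with PCI-34051. The log2 fold changes of all 34 lay between 0.05 and 0.43, with a median of 0.21. CDC20, which activates the anaphase-promoting complex, was at 93.9, 88.8 and 98.7 CPM with Tubastatin A and 73.3, 71.4 and 67.6 CPM with PCI-34051 (log2 fold change 0.40 ± 0.049 SE, adjusted p = 8.95e-05). MAD2L1, a spindle checkpoint protein, was at 55.9, 59.1 and 60.7 CPM and 43.1, 47.2 and 41.1 CPM in that order (log2 fold change 0.41 ± 0.057 SE, adjusted p = 0.00021), and CDK1, the kinase that starts mitosis, was at 51.5, 57.5 and 55.6 CPM and 47.7, 46.7 and 42.4 CPM (log2 fold change 0.26 ± 0.057 SE, adjusted p = 0.00647). The groups did not overlap for any of these 3 genes. The kinetochore genes NUF2 (0.43) and CENPA (0.42) had the largest differences of the list, and MKI67, a marker of cycling cells (named, like CDK1, after the values were seen), was at 376, 355 and 359 CPM and 306, 278 and 302 CPM (log2 fold change 0.30 ± 0.049 SE, adjusted p = 0.00095). Summed over the list, untreated cells were at 4441 to 4747 CPM, Tubastatin A at 3255 to 3329 CPM and PCI-34051 at 2624 to 2897 CPM, so that both treatments lay below the untreated libraries. The number of members past the threshold was 9, 9 and 7 without Tubastatin A replicate 1, 2 or 3, 11 when scaled by library totals alone and 0 with all 22 libraries in one fit. NUF2, MAD2L1 and CDC20 kept their calls with each library left out and CENPA lost its call in 4 of the 6 fits. Of 40 genes of DNA replication, 5 (12.5%) were higher with Tubastatin A and 0 with PCI-34051, with a median of 0.11. The 5 were RRM2, RRM1, TYMS, TK1 and MCM3, by 0.21 to 0.30 on the log2 scale. Their count was 0 to 4 without any single library.

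Windows of 250 bases upstream of CDC20 (chr1:43358731-43358980, plus strand) and CDK1 (chr10:60778081-60778330, plus strand) are shown. They were chosen because they hold the letters of 2 elements known from promoters of late cell-cycle genes. Capitals mark CCAAT (or ATTGG), the letters bound by NF-Y. They also mark TTTGAA or TTCGAA (or TTCAAA), the letters of the cell cycle homology region bound by the MuvB complex. In CDC20, CCAAT began 100 and 55 bases before the start, TTCAAA 178 and TTTGAA 65. In CDK1, CCAAT began 150 and TTTGAA 161 bases before the start. A match describes only the letters, and binding at these positions was not tested.
CDC20: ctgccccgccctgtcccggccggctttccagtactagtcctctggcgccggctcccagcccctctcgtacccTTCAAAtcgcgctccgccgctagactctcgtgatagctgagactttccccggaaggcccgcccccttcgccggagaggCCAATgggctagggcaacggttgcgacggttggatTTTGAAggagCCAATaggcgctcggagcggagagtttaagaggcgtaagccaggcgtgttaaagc
CDK1: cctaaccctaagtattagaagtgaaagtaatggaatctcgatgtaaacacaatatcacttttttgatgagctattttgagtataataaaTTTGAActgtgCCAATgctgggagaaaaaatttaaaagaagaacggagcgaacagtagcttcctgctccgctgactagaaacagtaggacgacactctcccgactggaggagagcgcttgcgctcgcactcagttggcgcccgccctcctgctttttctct
CCAAT was present in 78.6% of 28 windows of the mitosis list, 8 of 16 tubulin windows and 35.0% of the 12045 windows of genes tested. TTTGAA or TTCGAA was present in 57.1% of the mitosis windows and 10.1% of all. In the whole sets of genes called, CCAAT was present in 35.8% of 495 windows for genes higher with Tubastatin A and 31.1% of 283 for genes higher with PCI-34051. Both strands were searched, the motifs share no bases in the windows shown, and both motifs and windows were chosen after the data were seen.

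Replication-dependent histone genes make RNA in S phase that mostly ends in a stem-loop in place of a poly(A) tail, and many of them were higher with Tubastatin A. Of 54 listed genes, 34 were tested, and the median log2 fold change was 0.29. Of those tested, 19 (55.9%, against 3.45% of all genes tested) were higher with Tubastatin A and 0 with PCI-34051. The other 15 did not pass, 4 of them with negative log2 fold changes down to -0.46. HIST1H2AI (H2AC13) was at 122, 122 and 125 CPM with Tubastatin A and 88.6, 79.3 and 85.9 CPM with PCI-34051 (log2 fold change 0.53 ± 0.048 SE, adjusted p = 5.1e-06), HIST1H2AE (H2AC8) at 31.6, 31.2 and 35.3 CPM and 24.9, 24.5 and 22.2 CPM (log2 fold change 0.45 ± 0.066 SE, adjusted p = 0.000385), and HIST1H4C (H4C3) at 86.6, 84.1 and 85.6 CPM and 63.6, 60.99 and 65.2 CPM (log2 fold change 0.43 ± 0.043 SE, adjusted p = 1.39e-05). These genes did not overlap between the groups and kept their calls with each library left out. HIST2H2BE (H2BC21), a histone gene whose RNA can also carry a poly(A) tail and whose RNA often rises with broad deacetylase inhibitors, was at 102, 85.7 and 86.9 CPM and 67.2, 66.3 and 72.3 CPM (log2 fold change 0.41 ± 0.06 SE, adjusted p = 0.000393), both below the untreated 187 CPM. It was the only 1 of the 3 genes in the list of such markers to pass, and CDKN1A was at -0.084. Histone genes of 1 type are nearly identical in sequence, so single members are uncertain, and the summed level of the list was 2507 to 2628 CPM with Tubastatin A, 1964 to 2154 CPM with PCI-34051 and 3099 to 3848 CPM in untreated cells. After a correction for GC content and gene length the count was 13, without Tubastatin A replicate 3 it was 11, and with all 22 libraries in one fit it was 0.

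Upstream windows of HIST1H2AI (H2AC13, chr6:27807923-27808172, plus strand) and HIST1H2AE (H2AC8, chr6:26216671-26216920, plus strand) are shown as 2 of the histone genes with the largest differences. Capitals mark CCAAT (or ATTGG) and TATAAA (or TTTATA), the letters of the TATA box, which is usually found close to the start. In H2AC13 the TATAAA stretch began 31 bases before the start and TTTATA 219 bases before it, and in H2AC8 the only match was TTTATA 206 bases before the start.
H2AC13: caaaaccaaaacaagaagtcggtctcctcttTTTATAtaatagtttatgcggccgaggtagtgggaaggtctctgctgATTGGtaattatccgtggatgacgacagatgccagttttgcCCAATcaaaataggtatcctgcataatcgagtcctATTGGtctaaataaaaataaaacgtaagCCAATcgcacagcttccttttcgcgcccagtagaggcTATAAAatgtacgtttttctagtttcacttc
H2AC8: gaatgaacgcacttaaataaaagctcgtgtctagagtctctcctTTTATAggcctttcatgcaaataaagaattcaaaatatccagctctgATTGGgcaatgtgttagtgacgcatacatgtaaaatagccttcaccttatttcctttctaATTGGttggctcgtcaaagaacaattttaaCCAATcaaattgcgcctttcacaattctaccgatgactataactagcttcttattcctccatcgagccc
CCAAT was present in 83.9% of 31 histone windows and TATAAA in 71.0%, against 35.0% and 6.14% of the 12045 windows of genes tested. In the whole sets of genes called, TATAAA was present in 10.7% of 495 windows for genes higher with Tubastatin A. The share was 8.83% of 283 windows for genes higher with PCI-34051.

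Targets of NRF2, the transcription factor that answers oxidants and electrophiles by raising genes of glutathione, thioredoxin, NADPH and iron handling, were in part higher with PCI-34051. Of 23 listed genes, all tested, 9 (39.1%, against 2.20% of all genes tested) were higher with PCI-34051 and 0 with Tubastatin A. The median log2 fold change was -0.17, and members ran from -0.62 to 0.68. Positive values were seen in 3 of the 23, none of which passed. TXNRD1, thioredoxin reductase, was at 989, 1006 and 983 CPM with Tubastatin A and 1281, 1287 and 1193 CPM with PCI-34051 (log2 fold change -0.34 ± 0.037 SE, adjusted p = 3.11e-05). FTH1, the ferritin heavy chain that stores iron and a gene with many processed copies in the genome, was at 448, 391 and 428 CPM and 538, 565 and 569.7 CPM in that order (log2 fold change -0.41 ± 0.05 SE, adjusted p = 9.38e-05), and GCLC, the catalytic subunit of the first enzyme of glutathione synthesis (named after the values were seen), was at 31.5, 31.2 and 33.5 CPM and 42.2, 39.9 and 39.3 CPM (log2 fold change -0.34 ± 0.052 SE, adjusted p = 0.00052). OSGIN1 was at 6.28, 5.88 and 6.76 CPM and 9.82, 9.89 and 9.27 CPM (log2 fold change -0.62 ± 0.11 SE, adjusted p = 0.00153), and HMOX1, heme oxygenase, at 15.5, 14.8 and 16.1 CPM and 21.1, 19.96 and 18.9 CPM (log2 fold change -0.37 ± 0.076 SE, adjusted p = 0.00429). The groups did not overlap for any of these 5 genes, and both treatments were above the untreated means of 439, 286, 17.8, 3.10 and 10.97 CPM. TKT (-0.31), SLC7A11 (-0.20) and FTL (-0.17) were among the others past the threshold. Summed, the list was at 4709 to 4729 CPM with Tubastatin A, 5438 to 5604 CPM with PCI-34051 and 2475 to 2803 CPM in untreated cells. The count of members higher with PCI-34051 was 4, 4 and 5 without Tubastatin A replicate 1, 2 or 3 and 0 with all 22 libraries in one fit. TXNRD1 and FTH1 kept their calls with each library left out, OSGIN1 lost its call without Tubastatin A replicate 1 or 2, and HMOX1 lost its call in 4 of the 6 fits.

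The window upstream of a start of TXNRD1 (chr12:104215529-104215778, plus strand) is shown for the letters TGACNNNGC, the core of the antioxidant response element, in capitals.
TXNRD1: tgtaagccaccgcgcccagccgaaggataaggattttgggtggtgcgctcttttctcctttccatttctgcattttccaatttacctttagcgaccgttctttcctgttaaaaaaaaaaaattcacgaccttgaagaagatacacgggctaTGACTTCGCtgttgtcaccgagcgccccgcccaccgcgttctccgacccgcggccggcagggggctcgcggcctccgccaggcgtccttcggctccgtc
Those letters were present in 4 of 17 windows of the NRF2 list (23.5%), 12.2% of the 12045 windows of genes tested, 13.8% of the windows of genes called higher with PCI-34051 and 10.9% of those called higher with Tubastatin A.

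**Figure D3:**
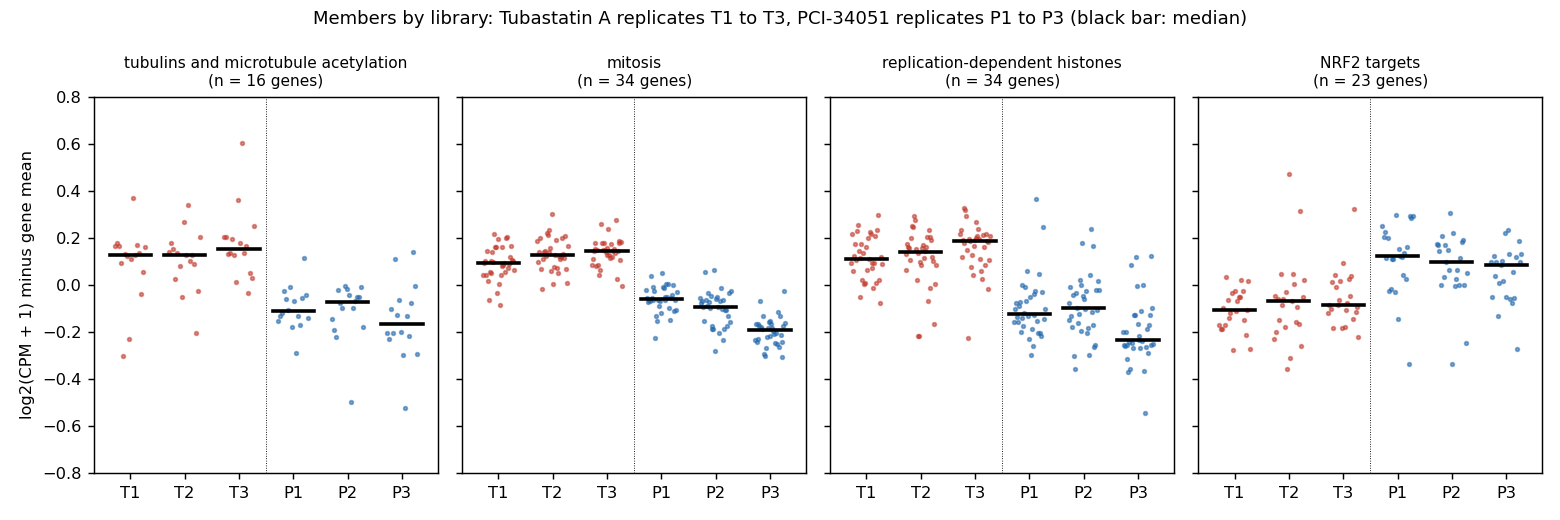
Log2(CPM + 1) of each tested member of 4 gene lists minus that gene's mean over the 6 treated libraries, with 1 point per gene and a black bar at the list's median in each library. The medians of tubulins, mitosis and histones are above 0 in all Tubastatin A libraries and below 0 in all PCI-34051 libraries, from 0.19 down to -0.24, and those of the NRF2 list run from -0.11 to 0.12 the other way.

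Among 26 genes of lysosomes and autophagy, 4 (15.4%, against 2.20% of all genes tested) were higher with PCI-34051 and 0 with Tubastatin A, at a median of -0.06. SQSTM1, described above, led them, followed by the lysosomal protease CTSD (-0.28), the autophagy kinase ULK1 (-0.24) and CTSA (-0.22). CTSD lost its call without Tubastatin A replicate 1, CTSA in 4 and ULK1 in 5 of the 6 fits that left out a library, and in those fits 2 or 3 members of the list passed.

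Inflammatory genes were split. Of 19 NF-kB targets tested, 5 (26.3%) were higher with PCI-34051 and 1 (5.26%) with Tubastatin A, at a median of -0.12. Over all genes tested the shares were 2.20% and 3.45% in that order. CXCL8, a chemokine that attracts neutrophils, was the exception, at 30.9, 34.4 and 29.2 CPM with Tubastatin A and 21.04, 18.9 and 19.6 CPM with PCI-34051 (log2 fold change 0.67 ± 0.071 SE, adjusted p = 2.39e-05). TNFAIP2 was at 15.3, 15.5 and 17.6 CPM and 24.7, 22.6 and 21.7 CPM (log2 fold change -0.51 ± 0.079 SE, adjusted p = 0.000553), and the cytokine genes LIF (-0.32), IL11 (-0.43) and IL1B (-0.24) and the NF-kB subunit gene RELB (-0.42) were also higher with PCI-34051. CXCL8 and TNFAIP2 kept their calls with each library left out, IL11 and RELB lost theirs in 3 of the 6 fits, and the number of members higher with PCI-34051 was 3 without Tubastatin A replicate 1 and 2 without Tubastatin A replicate 3. Among 36 interferon-stimulated genes, IFITM2 was higher with Tubastatin A (0.64), and IRF1 (-0.31) and PARP14 (-0.25) with PCI-34051, at a median of 0.01. Their shares of 2.78% and 5.56% were near the 3.45% and 2.20% of all genes tested. IFITM2 shares sequence with its neighbours in the family, and IRF1 lost its call in each fit that left out a library. CD274, the checkpoint ligand PD-L1, was chosen after its values were seen as a gene that passed with all 22 libraries, and was at 42.6, 43.1 and 41.4 CPM with Tubastatin A and 21.8, 26.1 and 25.2 CPM with PCI-34051 (log2 fold change 0.79 ± 0.063 SE, adjusted p = 1.62e-06).

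Immediate early genes respond within minutes to growth signals. Of 23 tested, 5 (21.7%) were higher with Tubastatin A and 1 (4.35%) with PCI-34051, at a median of 0.01. Over all genes tested the shares were 3.45% and 2.20%. CYR61 (CCN1), a secreted matrix protein induced by YAP and SRF, was at 774, 761 and 775 CPM with Tubastatin A and 585, 594 and 584 CPM with PCI-34051 (log2 fold change 0.39 ± 0.037 SE, adjusted p = 8.72e-06). FOSL1 (0.44), KLF2 (0.23), KLF6 (0.22) and CTGF (0.19) were the other genes higher with Tubastatin A. EGR1 was at 12.7, 10.5 and 11.97 CPM and 18.2, 13.4 and 24.4 CPM in that order (log2 fold change -0.67 ± 0.15 SE, adjusted p = 0.0098), a wide spread within the PCI-34051 group, and lost its call in 5 of the 6 fits that left out a library, as did FOSL1 and KLF2. CYR61 kept its call in all 6, and 1 to 4 of the members higher with Tubastatin A passed in those fits.

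The actin and extracellular matrix lists were mixed. Shares of their members are given beside 3.45% (higher with Tubastatin A) and 2.20% (higher with PCI-34051) of all genes tested. Of 19 genes of the actin cytoskeleton and SRF, 4 (21.1%) were higher with Tubastatin A and 1 (5.26%) with PCI-34051. The 4 were TAGLN, MYL9, ACTB and TPM4, and the list's median was 0.07. TAGLN, an actin-binding protein of contractile cells, was at 36.7, 34.6 and 38.6 CPM with Tubastatin A and 26.03, 27.2 and 26.5 CPM with PCI-34051 (log2 fold change 0.46 ± 0.056 SE, adjusted p = 9.22e-05). Of 20 TGF-beta targets, 3 were higher with Tubastatin A (TAGLN, TGFBI and CTGF) and 2 with PCI-34051, PMEPA1 among them, at a median of -0.04. Of 18 collagen genes tested, 1 (5.56%) was higher with Tubastatin A and 3 (16.7%) with PCI-34051. COL12A1 was at 154, 147 and 142.6 CPM with Tubastatin A and 101, 103 and 109.9 CPM with PCI-34051 (log2 fold change 0.49 ± 0.049 SE, adjusted p = 1.13e-05). COL27A1 (-0.42), COL5A1 (-0.21) and COL6A3 (-0.15) were higher with PCI-34051. Of 17 matrix proteases and inhibitors, 5 (29.4%) were higher with PCI-34051, among them MMP15 (-0.60), MMP1 (-0.51), MMP14 (-0.26) and TIMP1 (-0.24). Only PLAUR (0.29) was higher with Tubastatin A (5.88%). FN1, fibronectin, was at 2497, 2185 and 2354 CPM with Tubastatin A and 2999, 3012 and 3257 CPM with PCI-34051 (log2 fold change -0.40 ± 0.041 SE, adjusted p = 1.61e-05), both above the untreated 744 CPM. TAGLN, COL12A1, COL27A1, FN1, MMP1, MMP14 and PLAUR kept their calls with each library left out, whereas MMP15 and COL5A1 lost theirs in 5, MYL9 in 4, and COL6A3, TGFBI and PMEPA1 in 2 of the 6 fits.

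Integrins, the receptors that bind the matrix, changed in both directions, 2 of 15 higher with Tubastatin A and 3 higher with PCI-34051. The shares of all genes tested were 3.45% and 2.20% in the same order. ITGA11, a collagen receptor, was at 129, 116 and 127 CPM with Tubastatin A and 181, 166 and 199 CPM with PCI-34051 (log2 fold change -0.56 ± 0.061 SE, adjusted p = 3.11e-05), and ITGA2, another collagen receptor, at 928, 943 and 962 CPM and 1164, 1184 and 1166 CPM (log2 fold change -0.31 ± 0.034 SE, adjusted p = 2.39e-05). ITGB3 (-0.27) was also higher with PCI-34051. ITGA4, a subunit of the receptor for VCAM1 and fibronectin, was at 95.3, 91.9 and 95.3 CPM and 68.4, 67.2 and 64.6 CPM in that order (log2 fold change 0.49 ± 0.043 SE, adjusted p = 3.76e-06), and ITGA6 (0.27), a laminin receptor, was also higher with Tubastatin A. The untreated means were 15.7, 415 and 36.6 CPM for ITGA11, ITGA2 and ITGA4, all below both treatments. ITGA11, ITGA2 and ITGA4 kept their calls with each library left out and ITGA6 lost its call without Tubastatin A replicate 2 or 3.

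Lipid synthesis lists held calls in opposite directions. Of 11 genes of fatty acid synthesis, SREBF1, SCD and FASN (27.3%, against 2.20% of all genes tested) were higher with PCI-34051. None was higher with Tubastatin A, and the median was -0.08. SREBF1, the transcription factor of the branch, was at 48.6, 44.7 and 44.1 CPM with Tubastatin A and 58.8, 58.5 and 60.2 CPM with PCI-34051 (log2 fold change -0.37 ± 0.05 SE, adjusted p = 0.000167), and kept its call with each library left out, whereas SCD (-0.27) and FASN (-0.21) lost theirs without any single Tubastatin A library. Of 24 genes of cholesterol synthesis, 3 (12.5%, against 3.45% of all genes tested) were higher with Tubastatin A, among them FDPS (0.22) and FDFT1 (0.22). The list's median was -0.08, however, and the calls were 0 without any single Tubastatin A library. When scaled by library totals, 0 cholesterol genes were higher with Tubastatin A and 2 with PCI-34051.

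The deacetylase genes themselves were close between the treatments. HDAC6, the gene of the reported target of Tubastatin A, was at 18.3, 18.7 and 18.6 CPM with Tubastatin A and 18.6, 17.5 and 18.2 CPM with PCI-34051, a log2 difference of 0.031 with a 95% interval from -0.12 to 0.18 (adjusted p = 0.816). HDAC8, the gene of the reported target of PCI-34051, was at 11.8, 13.2 and 13.3 CPM and 14.3, 13.2 and 13.01 CPM, a log2 difference of -0.082 with an interval from -0.27 to 0.11 (adjusted p = 0.596). Of the 11 metal-dependent deacetylase genes only HDAC10, a polyamine deacetylase, passed (9.09%, against 2.20% of all genes tested higher with PCI-34051). It was at 23.3, 22.3 and 22.8 CPM and 27.6, 26.2 and 29.5 CPM (log2 fold change -0.29 ± 0.062 SE, adjusted p = 0.00626). HDAC10 lost its call in 5 of the 6 fits that left out a library. The log2 differences of the rest were 0.16 for HDAC9, 0.11 for HDAC2, 0.0065 for HDAC1, 0.0075 for HDAC11, -0.048 for HDAC4, -0.062 for HDAC3, -0.12 for HDAC5 and -0.16 for HDAC7. The signs of HDAC6, HDAC1 and HDAC11 turned when scaled by library totals, and those of HDAC1 and HDAC11 also with upper quartile scaling. None of 6 sirtuin genes passed, with log2 differences from -0.20 for SIRT7 to 0.092 for SIRT6 (1 at an unadjusted p below 0.05 in edgeR, 0 called by DESeq2), and MBLAC2, an enzyme with a reported affinity for several inhibitors of deacetylases, differed by 0.094 with an interval from -0.10 to 0.28 (adjusted p = 0.535). Of 16 acetyltransferase genes, 2 (12.5%, against 2.20% of all genes tested) were higher with PCI-34051. KAT2A was at 51.2, 50.6 and 50.2 CPM and 63.3, 61.1 and 62.3 CPM (log2 fold change -0.30 ± 0.044 SE, adjusted p = 0.000418). KAT6B was also higher with PCI-34051 (-0.35), and both kept their calls with each library left out.

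Several further lists held few calls, some near and some above the shares over all genes tested (3.45% higher with Tubastatin A, 2.20% with PCI-34051). None of 15 genes of cohesin and its regulators passed, with log2 fold changes from -0.26 to 0.29 and a median of 0.02, nor did any of 31 proteasome subunits (median 0.06) or 6 targets of the aryl hydrocarbon receptor (median -0.21). At an unadjusted p below 0.05, edgeR gave 4, 8 and 3 members of these lists in that order, and DESeq2 called 2, 1 and 0. Of 23 genes of primary cilium transport, only the BBSome genes BBS1 (-0.43) and BBS5 (-0.42) passed, both higher with PCI-34051 (8.7%). GADD45A (0.38) was the only one of 25 p53 targets (4.0%) to pass, and HSP90AA1 (0.20) the only one of 20 heat shock genes (5.0%). SSX1 (0.27) was the only one of 15 cancer-testis genes (6.67%) to pass. GADD45A, HSP90AA1 and SSX1 were all higher with Tubastatin A. In the unfolded protein and amino acid response, ASNS was higher with Tubastatin A (0.25) and CEBPB with PCI-34051 (-0.29) of 31 tested (3.23% each). PFKFB4 (-0.35) and PFKL (-0.20) of 21 glycolytic genes (9.52%) were higher with PCI-34051. PFKFB4 is also among the 17 hypoxia genes, where it and VEGFA (-0.29) were higher with PCI-34051 (11.8%) and LOX (0.20) with Tubastatin A (5.88%). Among 18 genes of RAS-MAPK output, DUSP4 (-0.27) was higher with PCI-34051 and FOSL1 (0.44) with Tubastatin A (5.56% each). BBS5, GADD45A and PFKFB4 kept their calls with each library left out, whereas the others named from these lists lost theirs in 1 to 5 of the 6 fits.

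MT2A, a metallothionein that binds zinc, was at 441, 400.3 and 410.3 CPM with Tubastatin A and 306, 254 and 354 CPM with PCI-34051 (log2 fold change 0.45 ± 0.082 SE, adjusted p = 0.00209). SLC39A10, a zinc importer, was also higher with Tubastatin A (0.25), so 2 of 6 genes tested passed (33.3%, against 3.45% of all genes tested). MT2A lost its call without Tubastatin A replicate 1 or 3 and SLC39A10 in 4 of the 6 fits. Of 12 neuronal genes repressed by REST, 3 were higher with Tubastatin A and 0 with PCI-34051, at a median of 0.21. The share of all genes tested that was higher with Tubastatin A was 3.45%. TUBB3, 1 of the 3, is also counted in the tubulin list above. BDNF, a neurotrophin, was at 35.4, 32.7 and 32.4 CPM and 23.5, 24.7 and 23.5 CPM (log2 fold change 0.48 ± 0.058 SE, adjusted p = 7.55e-05), and L1CAM, an adhesion molecule, at 3.55, 3.07 and 2.91 CPM and 1.40, 1.43 and 2.01 CPM (log2 fold change 0.97 ± 0.21 SE, adjusted p = 0.00633). BDNF kept its call with each library left out, and L1CAM and TUBB3 lost theirs in 5 of the 6 fits.

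**Figure D4:**
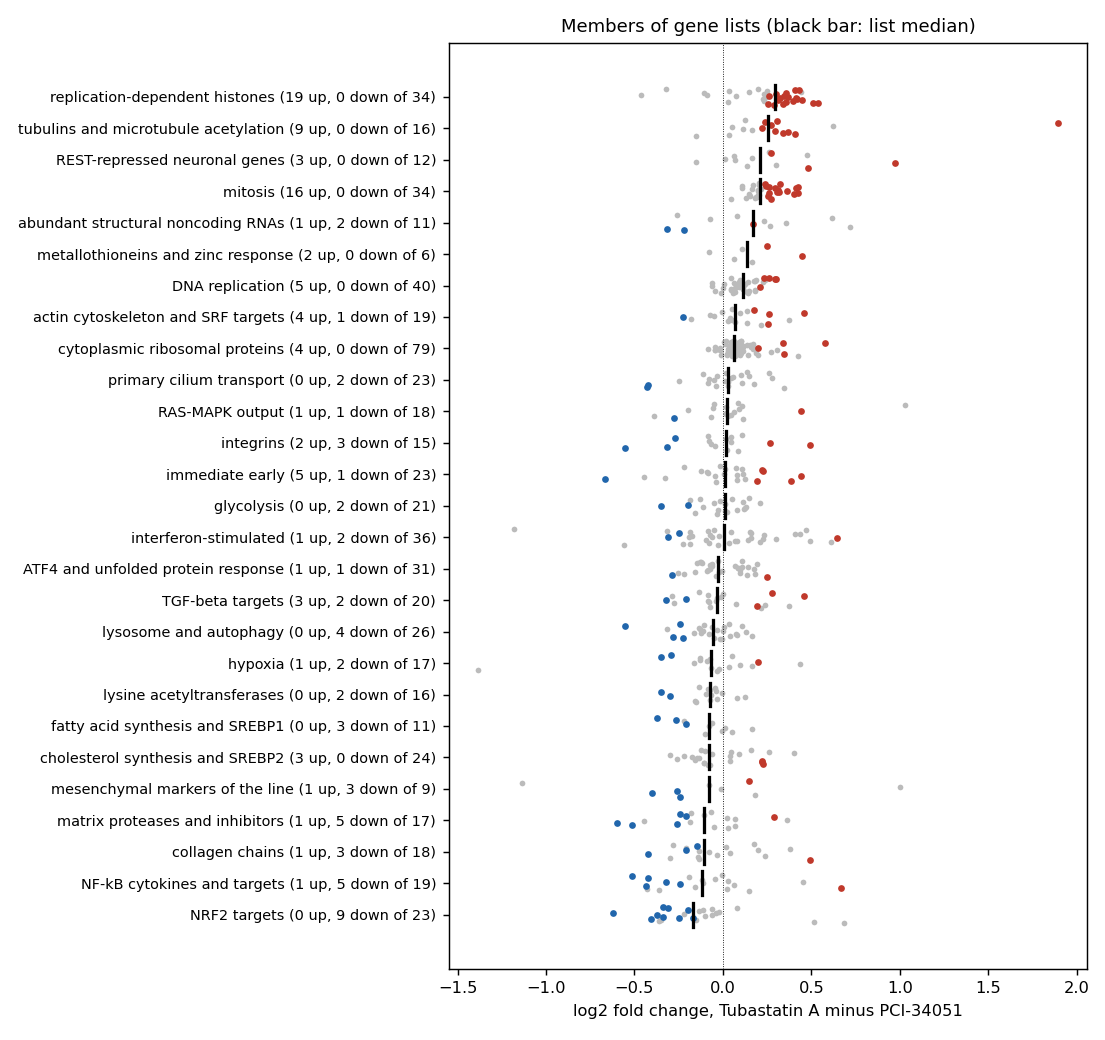
Log2 fold change (Tubastatin A minus PCI-34051) of every tested member of the lists with at least 6 tested members and at least 2 past the threshold, with 1 point per gene, red for members higher with Tubastatin A, blue for members higher with PCI-34051, grey for the rest and a black bar at the list's median. The labels give the members past the threshold as up (higher with Tubastatin A) and down (higher with PCI-34051), and by median the histone, tubulin, REST and mitosis lists stand at the top, in that order, and the NRF2 list at the bottom.

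Of 79 genes of cytoplasmic ribosomal proteins, which have many pseudogenes that can share their reads, 4 were higher with Tubastatin A (RPS27, RPL21, RPS26 and RPL6) and 0 with PCI-34051, at a median of 0.07. That is 5.06% against 3.45% of all genes tested, the count was 0 without Tubastatin A replicate 1 or 3 or PCI-34051 replicate 1, 2 without Tubastatin A replicate 2, 8 without PCI-34051 replicate 2 and 9 without PCI-34051 replicate 3, and each of the 4 lost its call in at least 4 of the 6 fits that left out a library. The 13 mitochondrially encoded mRNAs had a median of 0.58, 12 of them had an unadjusted p below 0.05 in edgeR, none passed in edgeR or DESeq2 and none was without overlap. Without PCI-34051 replicate 3, however, 12 of the 13 passed with a median of 0.92, without Tubastatin A replicate 3 it was 1, and without PCI-34051 replicate 2 the median was 0.31 and none passed, whereas all 13 passed when no filter on low counts was used. These mRNAs made up 3.83 to 4.72% of counts with Tubastatin A and 2.57 to 4.19% with PCI-34051 (exact two-sided permutation test, p = 0.2, n = 3 and 3, smallest possible p = 0.1). Among abundant noncoding RNAs, MALAT1 (-0.22) and NEAT1 (-0.32) were higher with PCI-34051 and RN7SL1 (0.17) with Tubastatin A, and these calls were lost in 4, 4 and 1 of the 6 fits. In a fit without the mitochondrial rRNA, structural noncoding and small RNA genes, 1139 genes were called, 695 higher with Tubastatin A and 444 with PCI-34051. Of these, 1030 had been called in the same direction in the main fit. Whether the RNAs named in this paragraph had a part in the other group differences was not tested further. Genes higher with PCI-34051 had a median GC content of 53.1% and those higher with Tubastatin A 44.2%, against 47.9% over all genes tested, and after a correction for GC content and gene length 973 genes were called, 567 higher with Tubastatin A and 406 higher with PCI-34051, of which 809 had been called in the same direction without it.

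For most of the genes that separated the compounds, the mean in untreated cells lay outside the range spanned by the treatments. Of the 636 genes higher with Tubastatin A, the untreated mean was below both treated means for 276, between them for 151 and above both for 209. Of the 405 genes higher with PCI-34051, it was below both for 209, between for 70 and above both for 126. These positions carry no test, and the untreated libraries differ from the treated ones in depth and in mitochondrial rRNA.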

How the data were processed

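RNA was measured by paired-end, rRNA-depleted RNA-seq of HT1080 cells. The authors trimmed the reads (Trimmomatic 0.39), aligned them to GRCh38 (Bowtie2 2.4.5) and estimated one expected count per gene and library (RSEM 1.3.3), and these expected counts were deposited without scaling. The annotation release is not given in the sources used here, and neither is the strand setting, so that antisense and overlapping genes cannot be told apart. The table held 60675 genes, 56558 of which were matched to GENCODE release 44 by gene ID for their type, length and GC content.

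Expected counts were rounded to whole numbers, and genes with low counts were removed (filterByExpr), which left 18409. Tubastatin A (n = 3) was compared with PCI-34051 (n = 3) by edgeR 4.0.16 (TMM scaling, quasi-likelihood test, Benjamini-Hochberg adjustment over all genes tested, threshold 0.01) in R 4.3.3. Log2 fold changes are Tubastatin A minus PCI-34051. CPM were scaled by TMM over the 10 libraries of WT cells. Single shares were compared by exact permutation tests over libraries. The scripts were tested on simulated counts with 200 genes changed. The main fit recovered 74% of these genes, and 3.9% of its calls were false. Of the genes changed 1.25-fold it recovered 32%. With a GC bias added to 1 group, 92.46% of calls were false without the correction for GC content and gene length. With that correction 2.01% were false. The size of the added bias was set in advance and not estimated from these data. The 40 gene lists (849 symbols, 847 in the table), the comparison and the genes named were chosen with earlier results of these data known. Genes were named by size of change: the 10 largest in each direction at 1 CPM or more, the 5 largest at 50 CPM or more, the 3 largest of other types, and up to 4 called members of each list; the remaining called members of a list are named as such. Lists are described by counts and medians, and some members are not reported here by name. RefSeq promoter windows of GRCh38.p14 were matched by symbol to 12045 of the 18409 genes tested, with 1 window per gene, nearest to its annotated start.

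Alternatives were DESeq2 1.42.0, other scalings and filters, other sets of libraries, a replicate block, a correction for GC content and gene length, thinning to the smallest total, other thresholds and each library left out. A fit of the 10 libraries of WT cells was added after seeing the data. Intervals are 95% confidence intervals of the log2 fold change, from the SE of the quasi-likelihood test, and reflect only the spread between these libraries.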

Additional observations from a re-analysis of the deposited data

Results flagged for a closer look

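Both results flagged here concern the untreated WT libraries, which did not enter the main fit. Each was flagged because 1 of the 4 libraries stood far from the others. ST6GALNAC2 was at 2.33, 2.39 and 2.42 CPM in 3 untreated libraries and at 3.3 CPM in WT replicate 1. SQSTM1 was at 490, 491 and 500 CPM in 3 untreated libraries and at 414 CPM in the same replicate. Of 31 genes examined in this way, chance flags about 1 in 20. The main test of both genes does not use the untreated libraries, which enter their CPM only through the scaling over the 10 libraries of WT cells.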

How the results depend on the processing

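The 1041 calls (636 higher with Tubastatin A, 405 higher with PCI-34051) became 1884 (1183 and 701) with no filter, 2463 (1417 and 1046) at an adjusted p below 0.05, 34 (25 and 9) at a log2 fold change of at least 1 in size, and 7 (7 and 0) with all 22 libraries in one fit, where 1113 genes had an unadjusted p below 0.05 in edgeR. With each library left out, the calls ranged from 407 to 1161, 260 to 694 higher with Tubastatin A and 134 to 467 higher with PCI-34051, and 54 of the 123 named genes past the threshold kept their calls in every such fit. DESeq2 gave 1410 calls, thinning to the smallest total 997, upper quartile scaling 517 higher with Tubastatin A and 516 higher with PCI-34051, and library totals 431 and 602. The cause of these shifts was not tested. No pairing of libraries by replicate number was seen. Same-numbered libraries deviated from their group means with correlations of -0.011, -0.107 and -0.054. None of the Tubastatin A libraries correlated best with the PCI-34051 library of its own number. With 3 libraries per group this check cannot exclude a shared replicate effect, and the labels do not say whether the numbers pair. With the replicate block there were 766 calls, and with the replicate block and the correction for GC content and gene length 414 genes were higher with Tubastatin A.

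Among the named genes, signs turned only in those that did not pass. With upper quartile scaling, library totals and protein-coding genes only, in that order, the log2 difference was -0.013, -0.028 and -0.012 for HDAC1, -0.012, -0.028 and -0.01 for HDAC11, -0.013, -0.028 and -0.011 for SIRT2, and -0.019, -0.035 and -0.018 for SIRT5. HDAC6 was at -0.004 with library totals, SIRT5 at -0.002 with at least 10 counts in every library, SIRT1 at 0.001 with all 22 libraries, and HDAC1 at -0.005 with the GC content and gene length correction and -0.001 with the replicate block added. With each library left out, HDAC1 ranged from -0.044 to 0.095, HDAC11 from -0.149 to 0.112, SIRT1 from -0.027 to 0.015, SIRT2 from -0.053 to 0.079 and SIRT5 from -0.017 to 0.032. The difference in the share of mitochondrial rRNA ranged from -0.001622 to 0.0007209 percentage points, positive only without PCI-34051 replicate 1. The SE was 0.35 for SCN3A, near 1 CPM, and 0.065 for KIF5C, and counting error was not separated from the spread between libraries.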
